A study of Mus musculus with 12 samples.

Results

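The oxidative phosphorylation genes encode the protein complexes of the mitochondrial inner membrane that carry electrons to oxygen and make ATP. They were chosen by name: symbols starting with Nduf, Uqcr or Atp5, with Cox followed by a digit from 4 to 8, or equal to Sdha, Sdhb, Sdhc, Sdhd, Cyc1 or Cycs. The rule found 90 of the 18820 genes that had a probe set of their own, through 124 of 23099 annotated probe sets, and each gene was represented by its probe set with the highest mean over the 12 arrays. By known function the 90 genes were 34 subunits of complex I, 7 complex I assembly factors named Ndufaf, 4 subunits of complex II, 8 of complex III, cytochrome c (Cycs), 19 genes of complex IV and 17 of complex V. Ndufa4 and Ndufa4l2 were placed with complex IV, where the Ndufa4 protein is now known to sit.

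Expression was measured on 1 Affymetrix Mouse Gene 1.1 ST array per animal in the medial prefrontal cortex (mPFC) of C57BL/6N mice aged 12 weeks. Mothers of 6 animals (PolyI:C) had been given poly(I:C), a double-stranded RNA made to mimic a virus, intravenously at 5 mg/kg on gestation day 17, and mothers of 6 animals (control) had received saline by the same route. Litter, sex and array strip are not among the labels, so littermates may be present and p-values refer to the variation among these 12 animals. The array medians ranged from 5.15 to 5.21 (log2), and the number of arrays limits the precision.

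Complexes I and II pass electrons from NADH and succinate to ubiquinone, complex III hands them on to cytochrome c, and complex IV reduces oxygen. Complexes I, III and IV pump protons, and complex V, the ATP synthase, uses the gradient. Nearly all subunits are encoded in the nucleus and a few in mitochondrial DNA, and those of mitochondrial DNA were not analysed here. In cortex most ATP is spent on ion pumping and synaptic transmission, and fast-spiking parvalbumin interneurons are known for a high demand.

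Many nuclear genes of the chain are known to share promoter motifs for the factors NRF1, YY1 and the ETS family member GABP. Promoter stretches are shown because each motif was more frequent in the members than in all promoter windows, though only a minority carried it. RefSeq promoter windows (GRCm38.p6, 250 bases before to 50 after the start) were matched for 74 of the 90 genes. The NRF1 core CGCATGCG, a palindrome and so the same on both strands, stood in 12 of the 74 (16.2%), against 1.87% of all 32851 windows and 2.77% of 17491 coding genes. The YY1 motif AAGATGGCG, read on both strands, stood in 7 (9.46%, against 1.40% and 2.14%), and the ETS motif CCGGAAG, read on both strands, in 18 (24.3%, against 8.86% and 12.9%). A match describes letters in the window and not binding. Stretches around the NRF1 core of 5 genes with values below are printed 5′ to 3′ on the gene's strand, with the core in capitals.
Ndufaf4, chr4:24897946-24898003, plus strand: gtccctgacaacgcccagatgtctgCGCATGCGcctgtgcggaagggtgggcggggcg
Cycs, chr6:50566598-50566655, minus strand: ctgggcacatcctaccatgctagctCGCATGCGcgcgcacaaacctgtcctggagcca
Cox6a1, chr5:115349087-115349144, minus strand: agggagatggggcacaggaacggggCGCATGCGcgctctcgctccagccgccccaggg
Atp5g2, chr15:102671056-102671113, minus strand: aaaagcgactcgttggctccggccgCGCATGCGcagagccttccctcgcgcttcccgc
Atp5l, chr9:44920951-44920992, minus strand: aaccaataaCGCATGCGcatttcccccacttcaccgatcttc

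Between the end of the core and the annotated start lay 104 bases in Ndufaf4 (a complex I assembly factor), 53 in Cycs, 153 in Cox6a1, 33 in Atp5g2 and 233 in Atp5l. These 5 genes differed in both directions between PolyI:C and control mice, at 0.0817 for Ndufaf4, 0.0483 for Cycs, -0.0572 for Cox6a1, 0.0353 for Atp5g2 and -0.0903 for Atp5l (log2), and none passed the test. Over the 12 genes with the core the median difference was -0.0014, against 0.0069 over the 62 without it.

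None of the 90 oxidative phosphorylation genes was higher or lower in PolyI:C mice at an adjusted p under 0.05 in limma. In the same fit 2.83% of all annotated probe sets were called, and 2.74% of the 18820 genes taken by their brightest probe set. At an unadjusted p under 0.05 the count was 3 of 90 (3.33%), against 18.8% of all genes, and these 3 were all in complex IV, with 0 in every other complex. The PolyI:C and control values did not overlap in 0 of the 90, against 2.43% of all genes. The lowest adjusted p was 0.0566, for Cox6b2, and that gene passed under 2 of 24 other settings: after centring each array on its median (adjusted p = 0.0452) and among probe sets above the 25th percentile of brightness (0.0498). The Cox6b2 probe set was dim even so, with a mean of 4.384 in PolyI:C mice and 4.519 in controls, below the median of every array.

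The differences were small as well as short of the threshold. They ran from -0.135 to 0.104 on the log2 scale, and 86 of the 90 (95.6%) were smaller than 0.1 in size, against 85.7% of all genes. Among the 1696 genes whose signal was at or above the median signal of the members, 91.5% were smaller than 0.1, and 28 were called higher and 9 lower. The 95% interval lay within a 1.2-fold change either way for all 90 genes, as it did for 95.5% of all genes, and within 1.1-fold for 67 (74.4%), against 56.7%. Among those 1696 genes the shares were 98.3% within 1.2-fold and 71.0% within 1.1-fold. The median standard error was nearly the same for the members (0.0387) and for all genes (0.0395), and was lower for those 1696 (0.0335). The values come from RMA-type processing, which can compress small differences.

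**Figure D1:**
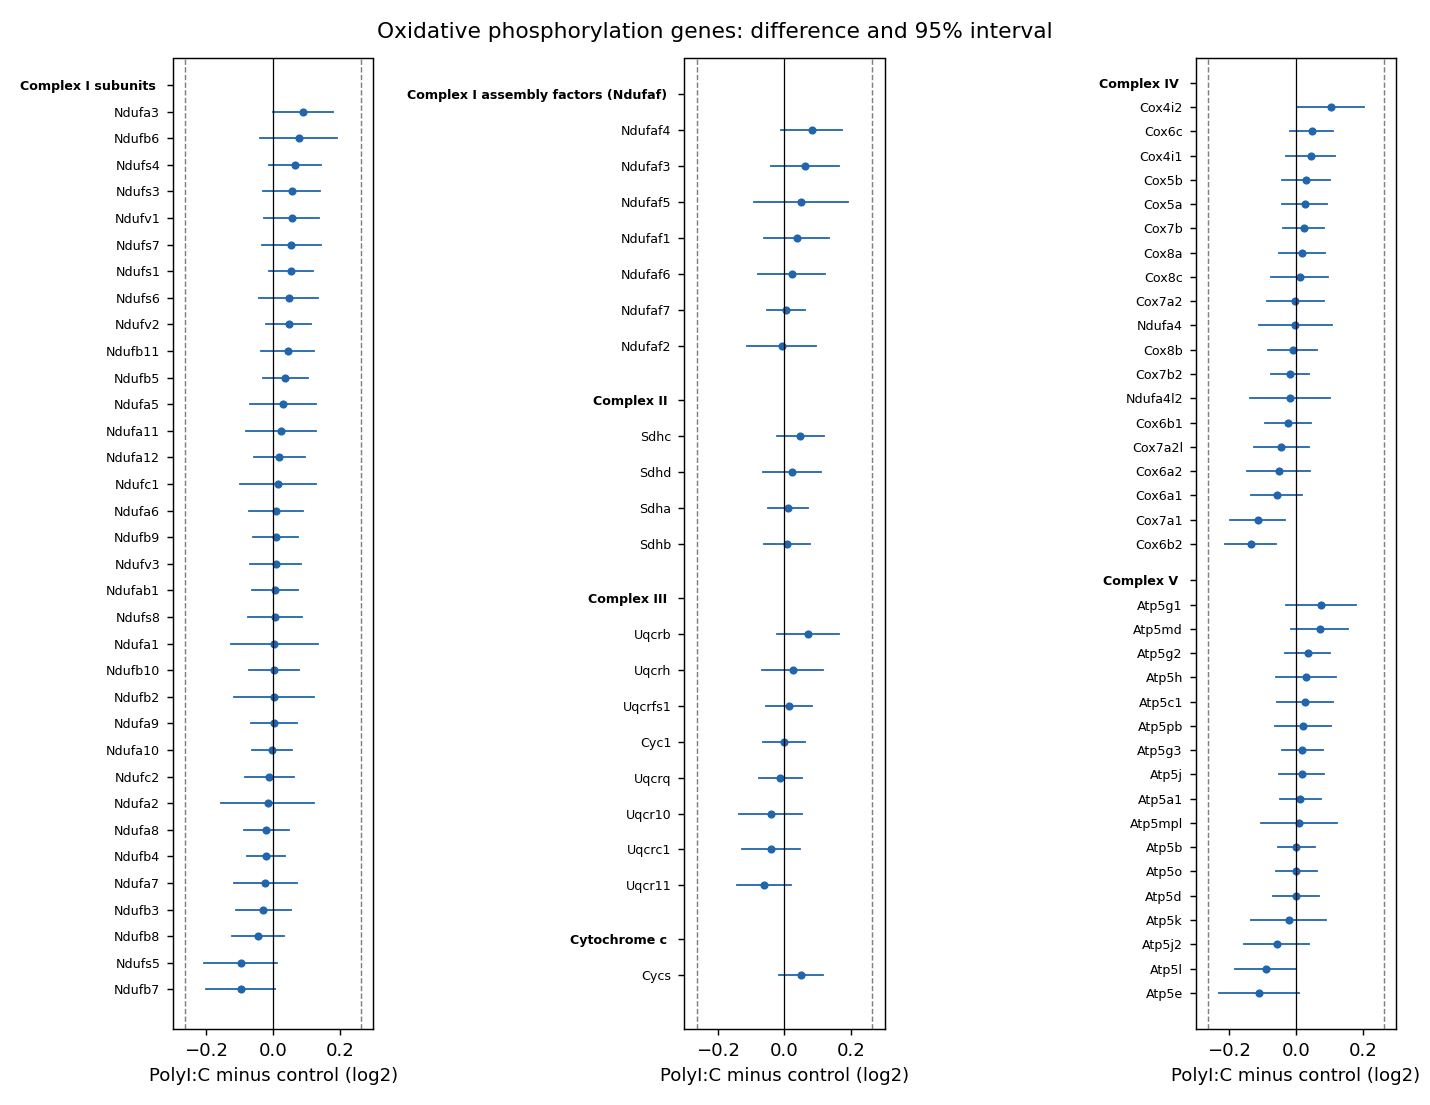
Log2 difference between PolyI:C and control mice (n = 6 each) for each of the 90 genes by complex, with points for the limma estimate and lines for its 95% interval. Dashed lines mark a 1.2-fold change (0.263 on the log2 scale), and all intervals lie inside them.

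The mean was higher in PolyI:C mice for 58 genes and lower for 32, and the median difference was 0.0089. Over all genes 9721 were higher and 9099 lower, with a median of 0.0025, and over the 1696 genes at or above the members' median signal 1185 were higher and 511 lower, with a median of 0.0256. The members' median thus lay above that of all genes and below that of these 1696. This balance moved with scaling: quantile normalization gave 36 higher and 54 lower with a median of -0.012, and median centring gave 43 and 47 with a median of -0.0015. It also moved with PolyI:C animal 5, without which 45 were higher and 45 lower (median -0.0015). The differences spread less among the members (SD 0.0462) than among all genes (SD 0.0783) or those 1696 (SD 0.0627).

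**Figure D2:**
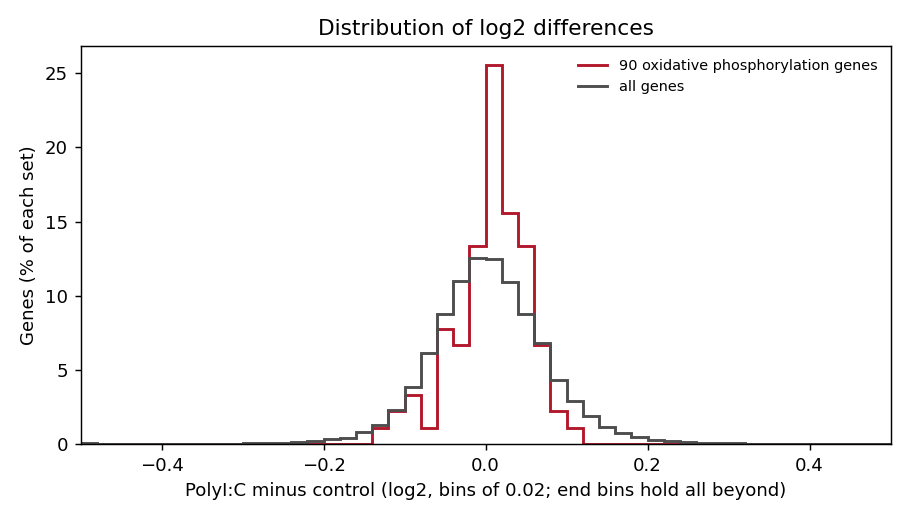
Share of genes in each bin of 0.02 of the log2 difference between PolyI:C and control mice, for the 90 oxidative phosphorylation genes and for all 18820 genes. The members fall between -0.135 and 0.104, without the tails of the whole set, whose end bins hold all genes beyond the axis.

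In complex I, the NADH dehydrogenase and largest complex of the chain, 0 of 34 subunits passed in either direction, 24 had a higher and 10 a lower mean in PolyI:C mice, and the lowest adjusted p was 0.268. The median difference of the 34 was 0.0073. For comparison, of the 1696 genes at or above the members' median signal 1185 were higher and 511 lower, with a median of 0.0256. The 6 measured core subunits, the class that holds the flavin and the iron-sulfur clusters, all had a higher mean, by 0.0049 to 0.0559, with a median of 0.0544. Under quantile normalization and median centring 5 of the 6 stayed above 0, with medians of 0.0296 and 0.0440, and Ndufs8 turned to -0.0149 and -0.0054. Without PolyI:C animal 5 the median was 0.0251, with Ndufs3 at 0.0253, Ndufs7 at 0.0249, Ndufv1 at 0.0212 and Ndufs8 at -0.0032. Ndufs1, the largest iron-sulfur subunit, had a lowest, median and highest value of 8.01, 8.02 and 8.12 in PolyI:C mice, against 7.92, 7.99 and 8.03 in controls. The groups overlapped, and the difference was 0.0541 ± 0.0310 (SE, n = 6 each; limma adjusted p = 0.357). Ndufv1, which binds NADH and flavin, had 8.93, 8.95 and 9.15 in PolyI:C mice, against 8.87, 8.92 and 8.99 in controls (difference 0.0553 ± 0.0389).

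Ndufs1, Ndufs3, Ndufv1 and Ndufv2 lay above the control mean in 6 of 6 PolyI:C animals, Ndufs7 in 5 of 6 and Ndufs8 in 4 of 6. None passed, and the other differences were 0.0559 ± 0.0401 for Ndufs3, 0.0460 ± 0.0315 for Ndufv2, 0.0547 ± 0.0414 for Ndufs7 and 0.0049 ± 0.0379 for Ndufs8. The 6 core subunits were singled out as a class after their values had been seen.

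Among the 28 accessory subunits, which surround the core and stabilise it, 18 had a higher and 10 a lower mean, with a median difference of 0.0046. Ndufa3 had 8.19, 8.30 and 8.45 (lowest, median, highest) in PolyI:C mice, against 8.13, 8.23 and 8.26 in controls (0.0896 ± 0.0428, adjusted p = 0.268). Ndufb7, on the intermembrane-space side, had 7.35, 7.46 and 7.64 in PolyI:C mice, against 7.47, 7.56 and 7.65 in controls (-0.0974 ± 0.0485, adjusted p = 0.287). Both pairs of groups overlapped, and differences of both signs are seen in the class. Ndufs5 differed by -0.0968 ± 0.0517 and Ndufs4, whose loss in mice causes a Leigh-like encephalopathy, by 0.0664 ± 0.0366, neither of them called.

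Of the 7 assembly factors named Ndufaf, which build complex I and are not part of it, 0 passed, and 6 had a higher mean (median 0.0366, lowest adjusted p 0.313). The median was 0.0198 without PolyI:C animal 5 and ran from 0.0053 to 0.0537 with 1 animal left out. Ndufaf4 had 6.23, 6.42 and 6.52 in PolyI:C mice, against 6.26, 6.32 and 6.40 in controls (0.0817 ± 0.0430). Ndufaf3 differed by 0.0609 ± 0.0477, with PolyI:C animal 5 far above the other 5 (0.0198 without it), and Ndufaf2, a factor for the late steps, by -0.0080 ± 0.0490. Outside the name rule, 0 of 23 measured assembly factors of complexes I, II, III and V passed, with Ttc19, which acts on complex III, at 0.0967 ± 0.0317 (adjusted p = 0.103) and Nubpl, which delivers iron-sulfur clusters to complex I, at -0.101 ± 0.0598.

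Complex II, succinate dehydrogenase, also belongs to the citric acid cycle, and none of its 4 subunits passed. Sdha, the flavoprotein, had 10.01, 10.03 and 10.04 in PolyI:C mice, against 9.96, 10.02 and 10.07 in controls, so that the PolyI:C values lay within the control range. It differed by 0.0093 ± 0.0283 (95% interval -0.0506 to 0.0691). The iron-sulfur subunit Sdhb differed by 0.0067 ± 0.0328, and the membrane anchors Sdhc and Sdhd by 0.0477 ± 0.0336 and 0.0220 ± 0.0411. All 4 were above 0 as deposited, Sdha, Sdhb and Sdhd were below 0 after quantile normalization, and Sdha and Sdhb after median centring.

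In complex III, 0 of 8 genes passed, 3 had a higher and 5 a lower mean, and the median difference was -0.0071. Uqcrb, which helps to shape the ubiquinone site, had 10.01, 10.09 and 10.21 in PolyI:C mice, against 9.93, 10.03 and 10.12 in controls (0.0710 ± 0.0441). Uqcr11, a small subunit, differed by -0.0621 ± 0.0382 (adjusted p = 0.394), and its other probe set by 0.0087. Uqcrc1, a core protein without a redox centre, differed by -0.0412 ± 0.0408 and the hinge protein Uqcrh by 0.0251 ± 0.0432. Cyc1, the haem-carrying cytochrome c1, had 8.89, 8.92 and 8.95 in PolyI:C mice, against 8.84, 8.93 and 8.99 in controls, a difference of -0.0016 ± 0.0298. Its electron acceptor Cycs had 10.32, 10.39 and 10.47 in PolyI:C mice, against 10.29, 10.34 and 10.38 in controls (0.0483 ± 0.0313, adjusted p = 0.419).

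Complex IV, cytochrome c oxidase, held the 3 genes at an unadjusted p under 0.05, isoforms known chiefly from other tissues. They were 15.8% of its 19 genes, a share below the 18.8% of all genes. Among its 8 isoforms of this kind the share was 37.5%, against 0 of its 11 ubiquitous genes, and these shares were not tested. Cox6b2 (probe set 10559649), an isoform of the Cox6b subunit known from testis, had 4.303, 4.388 and 4.446 in PolyI:C mice, against 4.444, 4.522 and 4.585 in controls. The groups overlapped only by the highest PolyI:C and the lowest control animal, and 6 of 6 PolyI:C animals lay below the control mean. The difference was -0.135 ± 0.0364 (95% interval -0.212 to -0.0579; unadjusted p = 0.00185, limma adjusted p = 0.0566).

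Cox7a1 (probe set 10551836), the heart and skeletal muscle isoform of Cox7a, had 5.39, 5.54 and 5.64 in PolyI:C mice, against 5.57, 5.65 and 5.70 in controls. Again 6 of 6 PolyI:C animals lay below the control mean, at -0.114 ± 0.0388 (adjusted p = 0.114). Cox4i2 (probe set 10477179), the isoform of Cox4 known from lung and induced by low oxygen, had 4.83, 4.90 and 5.10 in PolyI:C mice, against 4.71, 4.83 and 4.95 in controls. All 6 PolyI:C animals lay above the control mean, at 0.104 ± 0.0480 (adjusted p = 0.2499). The Cox4i2 probe set, like that of Cox6b2, was dim and lay below the median of every array. Over the other settings in which each was tested, the difference ran from -0.152 to -0.119 for Cox6b2, from -0.134 to -0.0852 for Cox7a1 and from 0.0701 to 0.129 for Cox4i2, with adjusted p of 0.0452 to 0.124, 0.0868 to 0.278 and 0.151 to 0.439.

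The other 5 tissue isoforms gave smaller differences. Cox6a2, known from heart and muscle, differed by -0.0515 ± 0.0447, Cox8b, also of heart and muscle, by -0.0089 ± 0.0346, Cox8c, of testis, by 0.0120 ± 0.0405, and Ndufa4l2, which hypoxia induces, by -0.0175 ± 0.0559. Cox7b2, of testis, lay below the lower quartile of the array on all 12 arrays and was the only such member (-0.0174 ± 0.0273). Averaged over the list, 8 measured markers of skeletal and cardiac muscle had a mean level of 5.56 to 5.70 in PolyI:C mice, against 5.56 to 5.72 in controls, and 0 passed.

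The 11 ubiquitous genes of complex IV, among which are the partners of these isoforms, had a median difference of 0.0190, with 6 higher, 5 lower and the lowest adjusted p at 0.402. By the brightest probe set of each gene all 11 intervals lay within 1.1-fold. Cox6b1 had 9.77, 9.88 and 9.92 in PolyI:C mice, against 9.84, 9.89 and 9.94 in controls, a difference of -0.0232 ± 0.0325. Cox7a2 had 8.69, 8.85 and 8.93 in PolyI:C mice, against 8.75, 8.86 and 8.89 in controls (-0.0010 ± 0.0401), and Cox4i1 had 9.28, 9.37 and 9.47 in PolyI:C mice, against 9.28, 9.32 and 9.37 in controls (0.0443 ± 0.0349). None of these partners passed, and whether the isoforms differed from them was not tested.

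Of the remaining genes of complex IV, Cox6a1 differed by -0.0572 ± 0.0356, Cox7a2l by -0.0433 ± 0.0393, Cox8a by 0.0190 ± 0.0326, Cox7b by 0.0233 ± 0.0295 and Ndufa4 by -0.0011 ± 0.0520. Cox6c lay above the control mean in 6 of 6 PolyI:C animals, at 0.0475 ± 0.0308 (adjusted p = 0.419), and Cox5b, named after its values were seen, differed by 0.0306 ± 0.0341. The second probe set of Cox7a2l stood at -0.138 ± 0.0516 (adjusted p = 0.152), the lowest value of any of the 124 probe sets.

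**Figure D3:**
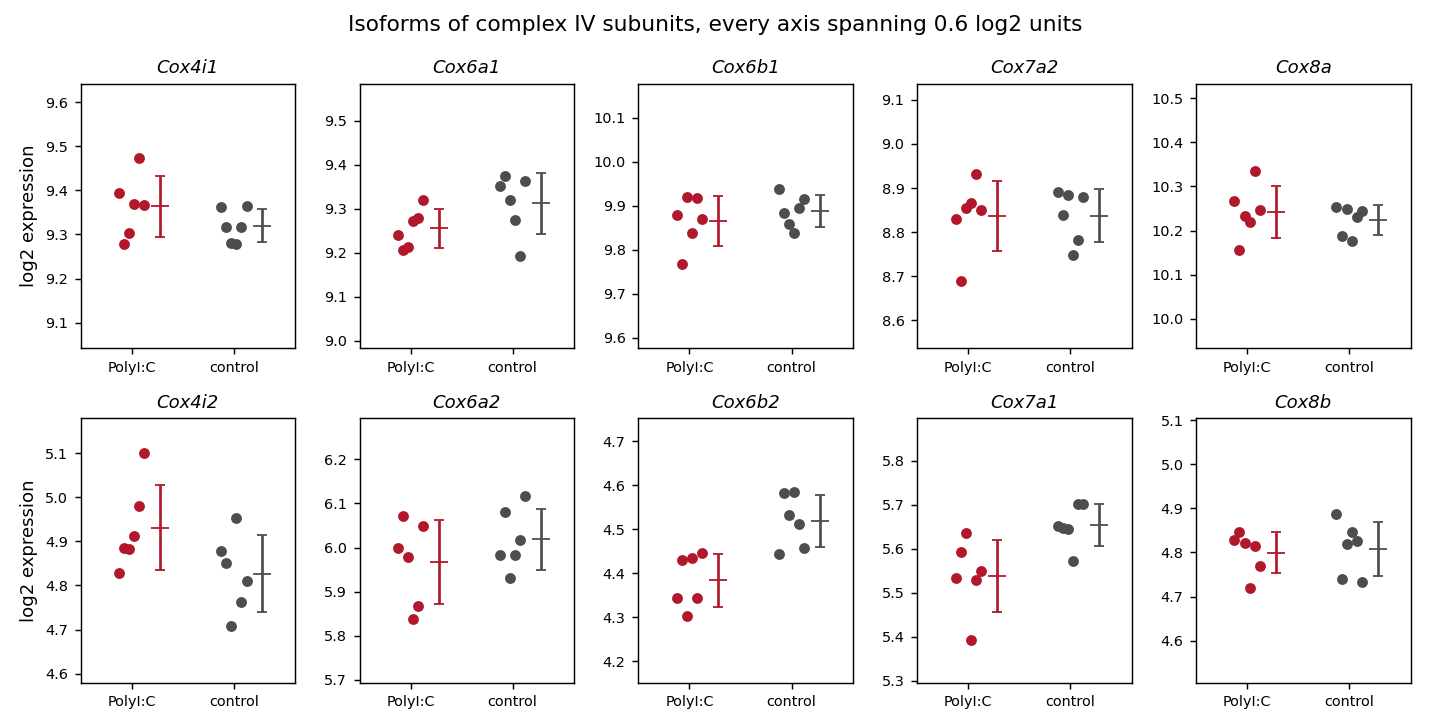
Log2 expression of 5 ubiquitous genes of complex IV (upper row) and an isoform of each known from other tissues (lower row) in PolyI:C and control mice, with a point per animal and bars for the mean and SD of 6 animals. Axes have different positions but the same span of 0.6 log2 units, and the groups overlap in every panel, in that of Cox6b2 by 1 animal on each side.

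In complex V, 0 of 17 genes passed, 12 had a higher and 5 a lower mean, and the median was 0.0139. The catalytic F1 part, which makes ATP, had a median difference of 0.0020 over 5 genes. Atp5b, the catalytic beta subunit, had 11.02, 11.05 and 11.10 in PolyI:C mice, against 11.03, 11.06 and 11.06 in controls, and differed by 0.0020 ± 0.0261 (95% interval -0.0532 to 0.0573). Its partner Atp5a1 differed by 0.0139 ± 0.0285, and both turned below 0 after quantile normalization. Atp5e, the small epsilon subunit, had 6.86, 7.03 and 7.18 in PolyI:C mice, against 6.99, 7.12 and 7.23 in controls (-0.110 ± 0.0562, adjusted p = 0.2995), with 5 of 6 PolyI:C animals below the control mean.

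The 12 genes of the membrane part and stalk had a median of 0.0186. Atp5l, subunit g, had 7.50, 7.63 and 7.79 in PolyI:C mice, against 7.68, 7.72 and 7.81 in controls (-0.0903 ± 0.0429, adjusted p = 0.264). All 6 of its probe sets were below 0, from -0.112 to -0.0854, and none passed. The 3 genes Atp5g1, Atp5g2 and Atp5g3 encode the same mature c subunit of the rotor ring with different import signals, and differed by 0.0752 ± 0.0493, 0.0353 ± 0.0319 and 0.0198 ± 0.0290. Atp5md, known for stabilising the assembled synthase, differed by 0.0712 ± 0.0404.

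Several probe sets measured 24 of the genes, and their signs matched in 20. In Atp5o, Cycs, Ndufb5 and Uqcr11 they were mixed. Of the 34 probe sets not chosen, 0 passed and 7 (20.6%) had an unadjusted p under 0.05 in limma, against 19.1% of all annotated probe sets, with the lowest adjusted p at 0.137. Several of these 7 were probe sets of the same gene, Atp5l, so the 20.6% counts a gene more than once. The share of 3.33% given above holds for the brightest probe set of each gene. Ndufc1 stood at 0.0156 by its brightest probe set and 0.121 by the other, Atp5h at 0.0300 to 0.115 over 4, and Ndufb5 at 0.0363 and -0.0886. Over all 124 the 95% intervals stayed between -0.247 and 0.232. Such genes can have near-identical copies elsewhere in the genome, so the split between their probe sets is uncertain.

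Within groups the subunits varied together across animals. The mean pairwise correlation of deviations from the group means over the 12 arrays was 0.176 among the 90 genes, against 0.011 among all genes and 0.054 among the 1696 at or above the members' median signal. It was 0.266 in complex I, 0.297 in complex III, 0.269 in complex V and 0.237 among the ubiquitous genes of complex IV. Among the tissue isoforms it was -0.058, so that complex IV as named stood at 0.020. Mitochondrial ribosomal proteins (0.264), cytosolic ribosomal proteins (0.170) and citric acid cycle genes (0.207) varied together as well. These are descriptions over arrays that share their processing, and genes are not independent replicates.

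A score for each animal, the median deviation of the members from their means over all animals, was also computed. The scores of PolyI:C animals 1 to 6 were -0.0038, -0.0228, 0.0087, -0.0008, 0.0704 and 0.0028, and those of control animals 1 to 6 were 0.0017, -0.0239, 0.0106, -0.0507, 0.0072 and 0.0259. PolyI:C animal 5 was highest and control animal 4 lowest, and the other 10 animals of both groups were intermixed. Animal 5 of the PolyI:C group also had the highest score for mitochondrial ribosomal proteins (0.098), citric acid cycle genes (0.0707) and all genes (0.0185), while its score was 0.0005 for cytosolic ribosomal proteins and -0.0171 for cortical neuron markers. Control animal 4 stood at -0.0778, -0.0583, -0.0110, -0.0274 and 0.0098 in the same 5 lists.

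**Figure D4:**
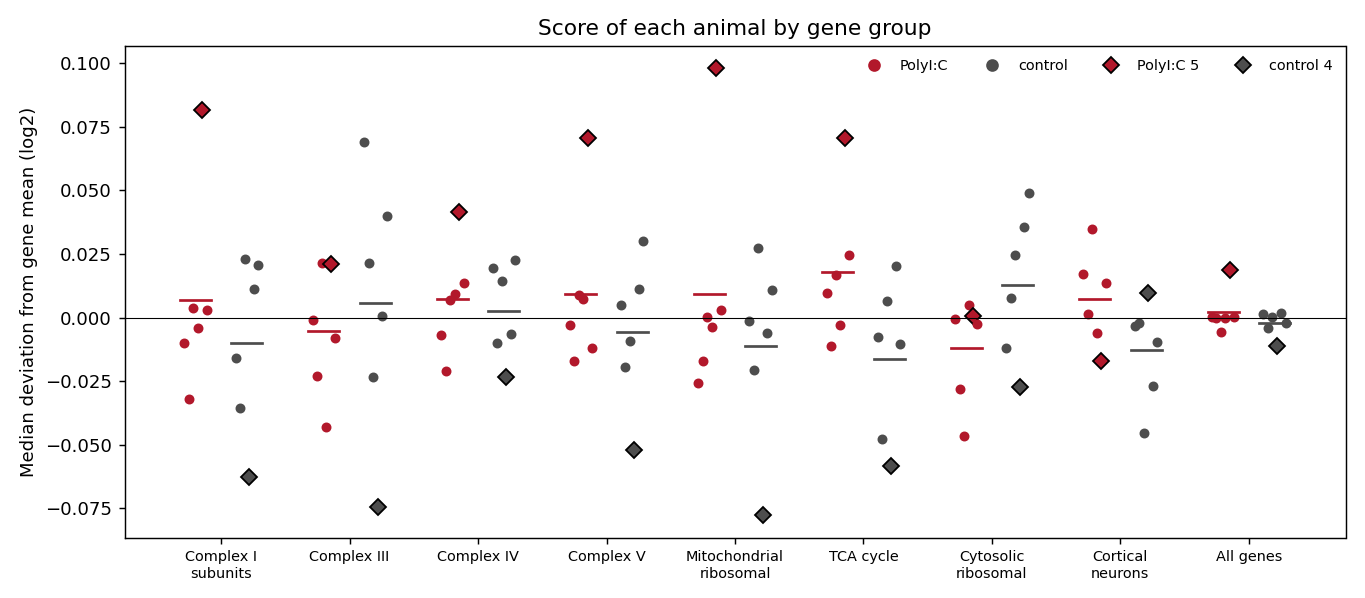
Score of each animal, the median deviation of a gene group from its mean over the 12 arrays (log2), in PolyI:C and control mice, with lines for group means. Diamonds mark PolyI:C animal 5 and control animal 4, the highest and lowest animals for complexes I and V and for mitochondrial ribosomal proteins.

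Without PolyI:C animal 5 the median difference was -0.0004 in complex I, 0.0003 in complex V and -0.0119 in complex IV. Without control animal 4 it was -0.0007, 0.0050 and 0.0034. No gene was called in either case, with 4 and 5 members at an unadjusted p under 0.05.

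Other mitochondrial genes, glycolysis genes and cytosolic ribosomal proteins were set beside the members, with the lists chosen when earlier results were known. In the citric acid cycle and pyruvate entry 0 of 18 measured genes passed, 13 had a higher and 5 a lower mean, and the median difference was 0.0494. Dld, the dehydrogenase subunit shared by the pyruvate and oxoglutarate complexes, had 7.67, 7.76 and 7.83 in PolyI:C mice, against 7.45, 7.58 and 7.70 in controls (0.177 ± 0.0464, adjusted p = 0.0506), with 6 of 6 PolyI:C animals above the control mean. Of 22 carriers and import proteins 0 passed (median 0.0274), with Opa1, which shapes the cristae, at 0.0925 ± 0.0324 (adjusted p = 0.126). Glycolysis had 0 of 15 called and a median of 0.0237. For comparison, the 1696 genes at or above the members' median signal had a median of 0.0256. How the medians of these lists move with scaling was not examined. Mitochondrial ribosomal proteins had 2 of 74 higher, Mrps18b by 0.159 ± 0.0399 (adjusted p = 0.0433) and Mrpl21 by 0.183 ± 0.0445 (adjusted p = 0.0379), and cytosolic ribosomal proteins 1 of 74 lower, Rps27 by -0.233 ± 0.0439 (adjusted p = 0.0134). These are 2.70% and 1.35% of the lists, not above the 2.74% of all genes.

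Of 20 measured nuclear regulators of mitochondrial genes 0 passed, 9 had a higher and 11 a lower mean, and their median difference was -0.0044. Ppargc1a, the coactivator PGC-1alpha, differed by 0.0554 ± 0.0334, Nrf1 by -0.0476 ± 0.0413, Gabpa by 0.0448 ± 0.0483, Yy1 by 0.0016 ± 0.0314, Esrra by 0.0608 ± 0.0361 and Tfam, which packages mitochondrial DNA, by 0.0494 ± 0.0458. Tfb2m, a factor of mitochondrial transcription, had the lowest p of the list, at 0.0969 ± 0.0400 (adjusted p = 0.193). Among the regulators with a lower mean Mterf2 had the lowest p, at -0.0806 ± 0.049 (limma adjusted p = 0.388).

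Markers of cortical neurons were measured on every array, and oligodendrocyte genes moved with the groups. Of 10 cortical neuron markers 0 passed, with list means of 10.13 to 10.18 in PolyI:C mice, against 10.09 to 10.16 in controls. For 8 markers of parvalbumin interneurons they were 7.03 to 7.13 in PolyI:C mice, against 7.03 to 7.12 in controls, and 0 passed, with Pvalb at 0.0755 ± 0.0602. Of 7 measured oligodendrocyte markers 5 were lower in PolyI:C mice (Mobp, Cnp, Cldn11, Mal and Myrf), with list means of 7.39 to 7.91 in PolyI:C mice, against 7.88 to 8.24 in controls. Of 8 striatal markers 1, Ppp1r1b, was lower, with list means of 6.336 to 6.495 in PolyI:C mice, against 6.390 to 7.064 in controls. All 8 had a lower mean (median -0.267), 6 of them at an unadjusted p under 0.05, and controls 5 and 6 had the highest scores of the list, 0.418 and 0.324, against -0.101 to 0.109 in the other controls and -0.192 to -0.0346 in PolyI:C mice. Without controls 5 and 6 the median difference was 0.0304 in complex I, 0.0284 in complex V and 0.0264 over the 90 genes, and 0 of the 90 passed, with 6 at an unadjusted p under 0.05. None passed among 8 astrocyte, 8 microglial, 6 endothelial, 2 red cell and 6 choroid plexus markers. The part of these shifts in the values of the oxidative phosphorylation genes was not tested, and in bulk tissue fewer cells of a type and less RNA per cell cannot be told apart.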

How the data were processed

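The deposited table holds log2 expression values per probe set for 12 arrays, 1 animal each, per the scale of the values, and the submitters' processing notes list RMA and Partek 6.6 but not what each did. The labelling kit is ambiguous in the labels' protocols (3' IVT or whole transcript), and the annotation build was not given in the sources used here. Of 35556 probe sets, 21218 carried 1 gene in the platform annotation, 1881 several and 12457 none, and 21185 of the single-gene ones matched the RefSeq gene table (GRCm38.p6), which served for symbols. All 90 members matched. Another 9 probe sets held a member's symbol with other genes and were not named.

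PolyI:C was compared with control in limma 3.58.1 under R 4.3.3 (lmFit, then eBayes) with no covariate, two-sided, over 23099 annotated probe sets with Benjamini-Hochberg adjustment. Errors are moderated standard errors (SE) unless marked SD, and intervals are those of the fit at 95%. The fit was tested on simulated data. Scores, correlations and motif matches came from Python 3.11.15 (numpy 2.4.6, pandas 2.3.3), and plots drawn with matplotlib 3.10.9.

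The members, lists and tests were chosen with earlier results of these data known. Named genes are the called members, the 2 lowest p-values in each direction per complex, complex II, Cycs, Cyc1 and the isoform sets (40 genes), and 12 were named after their values were seen: Ndufs1, Ndufs3, Ndufs7, Ndufs8, Ndufv1, Ndufv2, Ndufc1, Ndufb5, Cox5b, Atp5a1, Atp5b and Atp5h. From the other lists every called gene and some further genes were named, and the lowest p in each direction was not always among them. The ribosomal lists left out 9 names that are not ribosomal proteins.

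Alternatives comprised median centring, quantile normalization, the replicate block, weights per array, filters on brightness (25th or 50th percentile), the whole table without selection of annotated rows, a trended and robust variance prior, no variance moderation, the mean of a gene's probe sets, the platform's own symbols, and leaving out each animal or, together, controls 5 and 6, which had the highest striatal marker scores. The labels do not say whether replicate numbers pair the animals, and the main fit did not pair them.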

Additional observations from a re-analysis of the deposited data

Results flagged for a closer look

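In a group of 6 an animal was looked at again when its gap to the nearest other animal took up more of the group's range than Dixon's critical value at 95%. This happened in 10 of 120 groups examined, and chance alone gives about 1 in 20. The groups are not independent, since genes and scores share animals, and they did not cover every member. Ndufs1, Ndufs3, Ndufv1 and Atp5a1, flagged below, were among the genes named after their values were seen. The counts here are thus partly selected and cannot be weighed against chance. PolyI:C animal 5 was the highest of its group in 8 of the 10. It stood apart in the score of all oxidative phosphorylation genes (0.070, next animal 0.009), of complex I subunits (0.081, next 0.004), of the Ndufaf assembly factors (0.105, next 0.009) and of complex V (0.070, next 0.009). It also did so in the level of Ndufaf3 (8.381, next 8.185), Ndufs3 (8.989, next 8.817), Ndufv1 (9.148, next 8.958) and Atp5a1 (10.09, next 10.021). Ndufs1 was highest in PolyI:C animal 1 (8.119, next 8.024). Cox7b2, which lay below the lower quartile on every array, was highest in control animal 3 (2.952, next 2.905). Without PolyI:C animal 5 the median difference was -0.0015 over all members, -0.0004 in complex I, 0.0198 in the Ndufaf factors and 0.0003 in complex V, and the differences were 0.0198 for Ndufaf3, 0.0253 for Ndufs3, 0.0212 for Ndufv1 and 0.0003 for Atp5a1. No oxidative phosphorylation gene was called with or without it.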

How the results depend on the processing

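In limma, 0 of 90 oxidative phosphorylation genes were called under 22 of 24 alternative settings, with 0 to 7 members at an unadjusted p under 0.05. Under median centring and under the brightness filter at the 25th percentile (88 members tested) 1 was lower, Cox6b2, at adjusted p = 0.0452 and 0.0498. The 50th percentile filter left 80 members and removed Cox6b2, which could not be called there. The platform's own symbols reused the main fit and so could not differ from it in these counts. With the replicate block 0 were called, 5 had an unadjusted p under 0.05 and the median difference was 0.0089. Same-numbered animals correlated at -0.092 to 0.11 in their deviations, so no pairing by number was seen. The labels do not say whether the numbers pair the animals. The median over the members ran from -0.012 (quantile normalization) to 0.0264 (without controls 5 and 6). The median of all probe sets was 0.003 as deposited, -0.0098 after quantile normalization and -0.0073 after median centring, with 467, 239 and 298 probe sets higher and 186, 285 and 232 lower. Of 52 named genes 35 kept their sign throughout, and the largest main difference among the 17 others was 0.0363. Quantile normalization turned Atp5a1 to -0.0063, Atp5b to -0.0129, Cox8a to -0.0047, Ndufc1 to -0.0175, Ndufs8 to -0.0149, Sdha to -0.0069, Sdhb to -0.0235 and Sdhd to -0.0112. Median centring turned Atp5b to -0.0083, Ndufs8 to -0.0054, Sdha to -0.0011 and Sdhb to -0.0037. The mean of probe sets turned Ndufb5 to -0.0261, and leaving out controls 5 and 6 turned Cyc1 to 0.0015, Ndufaf2 to 0.0397 and Ndufs8 to -0.001. With 1 animal left out the differences ran from -0.0063 to 0.0087 for Atp5b, -0.02 to 0.0284 for Cox7a2, -0.0239 to 0.0072 for Cox8b, -0.0087 to 0.0333 for Cox8c, -0.0177 to 0.0115 for Cyc1, -0.0323 to 0.0428 for Ndufa4, -0.0551 to 0.0117 for Ndufa4l2, -0.0344 to 0.0216 for Ndufaf2, -0.0204 to 0.0513 for Ndufc1, -0.0187 to 0.0231 for Ndufs8, -0.002 to 0.0201 for Sdha, -0.0084 to 0.0225 for Sdhb and -0.0068 to 0.0476 for Uqcrh. The cause of these changes was not tested. Array number limits the precision, and of the 90 only Cox7b2 lay below the lower quartile on every array.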
